A study of Mus musculus with 18 samples.

Results

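The Notch genes described here are 4 receptors (Notch1, Notch2, Notch3 and Notch4), 3 ligands (Jag1, Jag2 and Dll1) and 3 target genes (Hes1, Hey1 and Heyl). They were chosen by name, and all 10 were found among the 38243 genes of the count files, each by 1 identifier. RNA was collected by laser capture microdissection, which cuts chosen areas out of a frozen section, from the heads of 6 female C57BL/6 embryos at E16.5. Of these, 3 were Fgfr2+/S252W embryos (labelled Fgfr2S252W), which carry on 1 allele the Fgfr2 mutation that in humans underlies Apert syndrome, and 3 were Fgfr2+/+ embryos, which the study's methods call littermates. By the numbering of the libraries, each embryo gave 1 library of mandibular bone, 1 of Meckel's cartilage (MC, the rod of cartilage along which the mandible forms) and 1 of mandibular condylar cartilage (the growth cartilage at the jaw joint, also called the condyle here), so that each of the 6 groups held 3 libraries. The labels name no Cre or tissue-restricted promoter for the mutation. A captured area holds whatever cells lay in it, and in such bulk libraries fewer cells of a type and less RNA per cell cannot be told apart.

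Notch signaling runs between touching cells. A ligand of the Jagged or Delta-like family on the surface of a cell binds a Notch receptor on its neighbour, the receptor is cut by ADAM10 and then by gamma-secretase, and the freed intracellular part joins RBPJ and Mastermind-like proteins in the nucleus, where genes of the Hes and Hey families are turned on. Hes and Hey proteins are transcriptional repressors. In the skeleton the pathway is known for holding back osteoblast and chondrocyte differentiation, and in blood vessels for sorting endothelial cells into arterial and sprouting types, where Notch4 and Dll4 are characteristic genes.

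Levels are given as normalized FPKM (fragments scaled to exon length and to library size, with library sizes adjusted by TMM factors), so that levels of genes of unequal length can be set beside each other. Total counts lay between 8218548 and 15585778 fragments per library. Mitochondrial transcripts took 19.4% to 38.1% of counts, and the annotated RNA Gm42418 took 24.1% to 39.4% of counts in MC against 5.58% to 20.2% in the other libraries. The libraries labelled MC held little of the chondrocyte markers: the 6 markers summed to 66.0 to 1679 normalized FPKM in MC, to 5960 to 7193 in condylar cartilage and to 17.8 to 76.0 in bone. Col2a1, the main cartilage collagen, had a median of 400 in MC, 4172 in condylar cartilage and 38.2 in bone, and of the 6 markers 5 had a higher median in MC than in bone, the exception being Hapln1 (8.26 against 8.43). The tissue names below are those of the labels, and differences from MC are differences from those libraries.

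The receptors were led by Notch2 in every library. Notch2 (GRCm38, chromosome 3, 98013538 to 98150367, plus strand) made up a median of 73.7% of the summed receptor FPKM in bone, 79.1% in MC and 82.7% in the condyle. Notch1 (chromosome 2, 26457903 to 26516663, minus strand) was second in each tissue by its median share, which was 14.3%, 12.2% and 14.1%. Notch3 (chromosome 17, 32120820 to 32166880, minus strand) took 7.37% in bone and 8.07% in MC but 1.73% in condylar cartilage. Notch4 (chromosome 17, 34564268 to 34588503, plus strand), a receptor known chiefly from endothelium, took 4.88%, 1.69% and 0.795%. Receptor makeup thus kept its leading gene across the tissues and varied in its minor members.

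Among the ligands, Jag1 (chromosome 2, 137081456 to 137116644, minus strand) led by its median share in all 3 tissues, with 71.9% of the summed FPKM of Jag1, Jag2 and Dll1 in bone, 97.3% in MC and 51.7% in the condyle. Jag2 (chromosome 12, 112908590 to 112929495, minus strand) never rose above 0.726 normalized FPKM. Dll1 (chromosome 17, 15367354 to 15375976, minus strand) never rose above 0.576. Among the targets, Hey1 (chromosome 3, 8663362 to 8667039, minus strand) led in bone and MC, with median shares of 73.9% and 59.7%. In condylar cartilage Hes1 (chromosome 16, 30065340 to 30067796, plus strand) had the largest median share, 55.1%, and Hey1 had 23.5%. Heyl (chromosome 4, 123233556 to 123249875, plus strand) took 14.8% in bone, 9.25% in MC and 15.5% in the condyle.

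Windows of 250 bases upstream of the RefSeq start on GRCm38.p6 were found for 7 members, in 8 windows. They are not given for Hes1, Hey1 and Heyl. The windows of 4 members are shown because these genes span the patterns described below: Notch2 was the receptor with the highest level in every library, Notch3 differed between the cartilages, Jag1 differed most between them, and Notch4 was highest in bone. Capitals mark CG dinucleotides, which mark CpG-rich promoters. The windows, 5′ to 3′ on the gene's strand, are chr3:98013288-98013537 (plus) for Notch2, chr17:32166891-32167140 (minus) for Notch3, chr17:34564045-34564294 (plus) for Notch4 and chr2:137116521-137116770 (minus) for Jag1.
Notch2: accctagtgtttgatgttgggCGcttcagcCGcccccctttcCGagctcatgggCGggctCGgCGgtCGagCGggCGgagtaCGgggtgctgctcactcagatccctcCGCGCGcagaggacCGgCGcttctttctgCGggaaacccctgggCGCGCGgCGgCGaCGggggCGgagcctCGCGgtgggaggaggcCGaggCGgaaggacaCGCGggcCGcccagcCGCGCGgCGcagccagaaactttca
Notch3: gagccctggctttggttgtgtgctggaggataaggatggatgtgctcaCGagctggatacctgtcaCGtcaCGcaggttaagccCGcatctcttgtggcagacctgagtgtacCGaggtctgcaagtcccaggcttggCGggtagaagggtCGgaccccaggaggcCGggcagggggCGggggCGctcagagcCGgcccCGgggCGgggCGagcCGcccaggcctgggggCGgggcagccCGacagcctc
Notch4: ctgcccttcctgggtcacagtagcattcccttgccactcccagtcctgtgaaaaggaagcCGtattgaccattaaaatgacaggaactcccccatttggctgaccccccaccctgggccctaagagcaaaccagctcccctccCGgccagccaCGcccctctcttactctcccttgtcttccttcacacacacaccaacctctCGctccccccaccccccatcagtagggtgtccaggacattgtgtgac
Jag1: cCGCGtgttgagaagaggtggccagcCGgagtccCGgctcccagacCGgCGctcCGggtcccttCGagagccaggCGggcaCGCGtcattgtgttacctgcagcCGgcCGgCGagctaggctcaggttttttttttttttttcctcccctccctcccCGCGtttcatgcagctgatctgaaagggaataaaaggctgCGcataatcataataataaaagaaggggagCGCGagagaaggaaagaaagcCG
The Notch2 window held 34 CG dinucleotides, the Jag1 window 20, the Notch3 window 17 and the Notch4 window 4. The median over 32851 windows of the same length was 6, so that of the windows shown Notch4 alone lay below it, and 44.4% of all windows held as few as Notch4 or fewer. The core of the RBPJ site, TGGGAA or its reverse complement TTCCCA, was in none of the 8 member windows and in 21.6% of all windows, which says only that these letters are not in these stretches.

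The 10 members were described across tissues with both genotypes averaged. The main comparison (limma with voom) took the 11469 genes that exceeded 1 FPKM, computed from total counts without TMM factors, in 50% or more of the libraries, and kept Notch1, Notch2, Notch3, Jag1, Hes1 and Hey1. On that scale Notch4 and Heyl passed 1 FPKM in 6 libraries each and Jag2 and Dll1 in none, so their tests come from the same fit on the 14881 genes that edgeR's filterByExpr kept, where all 10 members were present. In that wider fit 7 of 10 members differed between bone and MC, 5 higher and 2 lower in bone, beside 49.7% of all genes, 26.5% higher and 23.2% lower. Between bone and condylar cartilage 7 of 10 differed, all higher in bone, beside 50.4% of all genes in either direction and 26.5% higher in bone. Between condylar cartilage and MC 7 of 10 differed, 6 lower and 1 higher in condylar cartilage, beside 55.8% of all genes in either direction and 27.9% lower. These counts are a description, since a member of low level could enter the fit through a single tissue where it was high, as Dll1 could through bone, and they are not support for a property of the members.

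**Figure D1:**
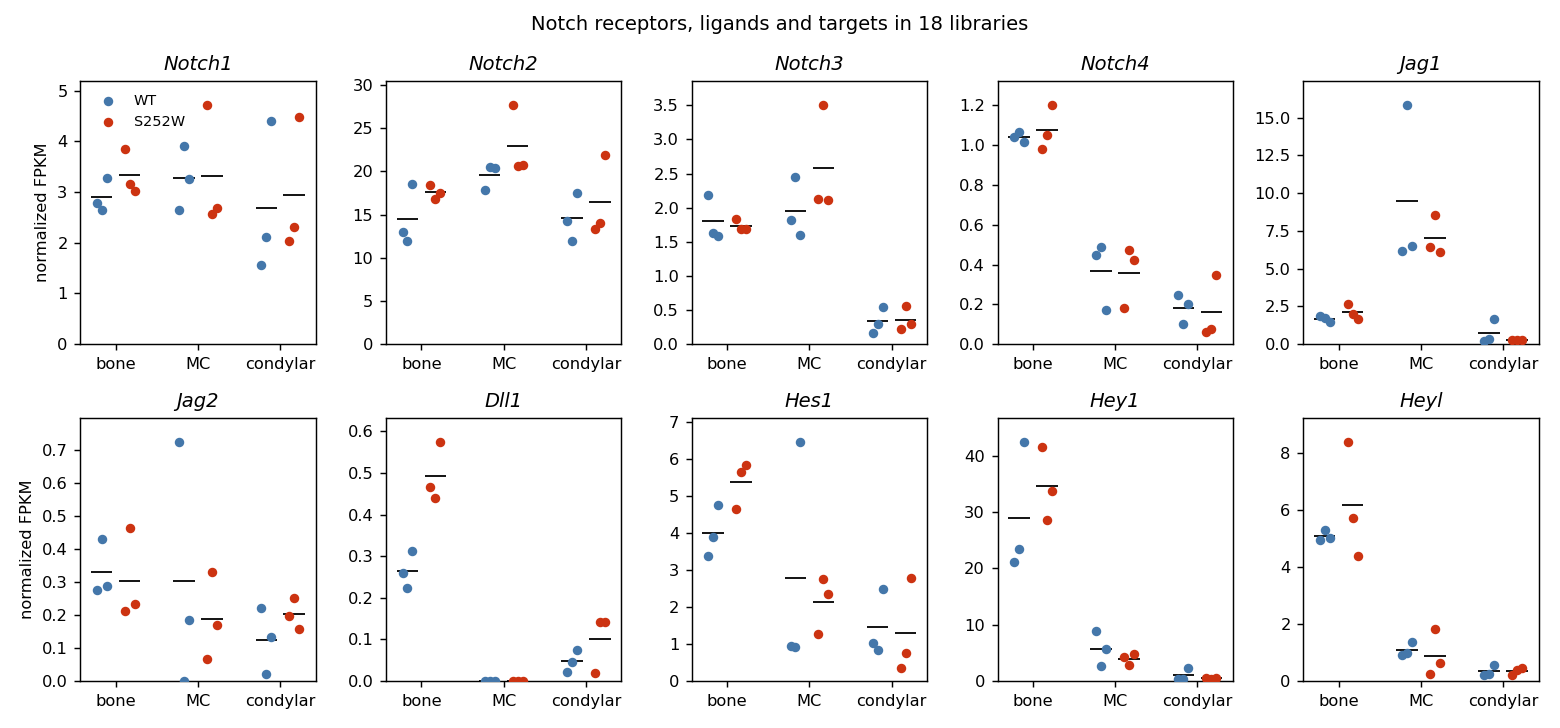
Normalized FPKM (vertical axis, linear, from 0, scaled to each gene) of the 10 members in 18 libraries, by tissue and genotype. Points are libraries, bars are means of 3, and WT stands for Fgfr2+/+. Hey1, Heyl, Notch4 and Dll1 are highest in bone, Jag1 in MC, and the genotypes overlap in most panels.

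In the members kept by the main comparison, 4 of 6 passed between bone and MC, beside 51% of all genes, 4 of 6 between bone and condylar cartilage, beside 48.9%, and 4 of 6 between condylar cartilage and MC, beside 56.2%. Jag1, Notch3, Hes1 and Hey1 cleared the 1 FPKM limit in 11 to 13 libraries, largely those of the tissues where they were high, so these counts are not set against the background as evidence. The median log2 fold change of the 10 members was 2.39 between bone and condylar cartilage, against 0.02 over all genes tested. It was 1.15 between bone and MC, against 0.04, and -0.96 between condylar cartilage and MC, against 0.00. The libraries of the tissues did not overlap for 5 of 10 members between bone and MC (23.8% of all genes), for 6 of 10 between bone and condylar cartilage (32.9%) and for 4 of 10 between condylar cartilage and MC (27.8%). The medians and these shares carry the same limit as the counts and are a description only.

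TMM scaling raised the values of 5 of 6 MC libraries and lowered those of all bone libraries. With total counts and no scaling factor, which was chosen after seeing the data, the median gene shifted by 1.08 on the log2 scale toward bone in the comparison with MC, by 0.30 toward bone in that with condylar cartilage and by 0.78 toward condylar cartilage in that with MC. Of the genes that passed between bone and MC, 94.1% were then higher in bone, against 52.0% with TMM scaling, and of those between condylar cartilage and MC 83.7% were higher in condylar cartilage, against 50.6%. Of those between bone and condylar cartilage 73.7% were higher in bone, against 51.6%. Differences smaller than these shifts depend on the scaling, and directions below are relative to the typical gene.

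Notch1 had 2.77, 2.64 and 3.28 normalized FPKM in Fgfr2+/+ bone and 3.85, 3.16 and 3.02 in Fgfr2+/S252W bone. In MC it had 2.65, 3.91 and 3.26 in Fgfr2+/+ and 4.72, 2.57 and 2.68 in Fgfr2+/S252W embryos. In condylar cartilage the values were 1.55, 2.10 and 4.40 in Fgfr2+/+ and 2.04, 2.30 and 4.47 in Fgfr2+/S252W embryos. The tissues overlapped, and the highest condylar library of each genotype was replicate 3. These were also the condylar libraries with the most Gm42418, 20.1% and 20.2% of counts, and those with the highest sums of osteoblast markers (3918 and 6001 normalized FPKM against 1593 to 1949 in the other 4) and of hypertrophic chondrocyte markers (1618 and 1260 against 512 to 913). The part of that RNA and of those cells in the Notch1 values was not tested. No tissue difference of Notch1 passed the test, with log2 fold changes of -0.05 ± 0.23 (SE) between bone and MC (adjusted p = 0.876, limma), 0.31 ± 0.22 between bone and condylar cartilage (adjusted p = 0.251, limma) and -0.36 ± 0.24 between condylar cartilage and MC (adjusted p = 0.222, limma). The difference from condylar cartilage passed without Fgfr2+/+ condylar replicate 3, at 0.51 for bone (adjusted p = 0.0395, limma) and -0.56 against MC (adjusted p = 0.0347, limma). With no scaling factor Notch1 was higher in bone than in MC by 1.02 (adjusted p = 7.61e-04, limma), which is close to the shift of the median gene, and in condylar cartilage than in MC by 0.45 (adjusted p = 0.121, limma).

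Notch2 was the receptor with the highest level in each tissue. Its 6 bone libraries ran from 11.9 to 18.6 normalized FPKM with a median of 17.2, its 6 MC libraries from 17.9 to 27.7 with a median of 20.6, and its 6 condylar libraries from 11.96 to 21.9 with a median of 14.1. The ranges overlapped in each pair of tissues. Its log2 fold change was -0.41 ± 0.14 between bone and MC (adjusted p = 0.0194, limma), -0.48 ± 0.14 between condylar cartilage and MC (adjusted p = 0.00665, limma) and 0.07 ± 0.14 between bone and condylar cartilage (adjusted p = 0.684, limma). The lower level in bone than in MC was lost without Fgfr2+/S252W MC replicate 1 (-0.33, adjusted p = 0.0740, limma) or Fgfr2+/+ bone replicate 2 (-0.34, adjusted p = 0.0585, limma), and its direction turned to 0.66 with no scaling factor (adjusted p = 0.00648, limma). The difference between condylar cartilage and MC turned to 0.30 with no scaling factor (adjusted p = 0.218, limma).

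Notch3, known from pericytes, smooth muscle and mesenchymal cells, separated condylar cartilage from the other tissues. It had 2.19, 1.63 and 1.58 normalized FPKM in Fgfr2+/+ bone and 1.84, 1.69 and 1.69 in Fgfr2+/S252W bone. In MC it had 1.82, 2.45 and 1.60 in Fgfr2+/+ and 2.12, 3.51 and 2.11 in Fgfr2+/S252W embryos. In condylar cartilage it had 0.166, 0.296 and 0.544 in Fgfr2+/+ and 0.223, 0.561 and 0.301 in Fgfr2+/S252W embryos. Each condylar library lay below each bone and each MC library. The log2 fold change was 2.48 ± 0.27 between bone and condylar cartilage (adjusted p = 1.81e-07, limma) and -2.78 ± 0.29 between condylar cartilage and MC (adjusted p = 7.07e-08, limma). Bone and MC, neighbours in this order, differed by -0.29 ± 0.19 (adjusted p = 0.211, limma), which turned to 0.76 with no scaling factor (adjusted p = 0.00589, limma). An exon of Notch3 overlaps Gm17276 on the other strand, and because counting used no strand and left out fragments shared by genes, part of Notch3 is not in these counts.

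Notch4 was highest in bone, with 1.04, 1.07 and 1.02 normalized FPKM in Fgfr2+/+ and 0.982, 1.05 and 1.20 in Fgfr2+/S252W embryos. In MC the 6 libraries lay between 0.170 and 0.490, from 6 to 32 fragments each. In condylar cartilage they lay between 0.0604 and 0.348, from 6 to 22 fragments each. Bone did not overlap either cartilage, and the cartilages overlapped each other. In the filterByExpr fit the log2 fold change was 1.68 ± 0.33 between bone and MC (adjusted p = 3.37e-04, limma), 2.87 ± 0.36 between bone and condylar cartilage (adjusted p = 1.04e-06, limma) and -1.19 ± 0.45 between condylar cartilage and MC (adjusted p = 0.0291, limma). The last of these failed the test when any of 7 single libraries was left out, at log2 fold changes from -0.94 to -1.07, and with no scaling factor (-0.45, adjusted p = 0.442, limma).

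Jag1, the Jagged ligand best known from skeletal and vascular Notch signaling, had another order over tissues than the targets. It had 6.16, 15.8 and 6.47 normalized FPKM in Fgfr2+/+ MC and 6.46, 8.58 and 6.12 in Fgfr2+/S252W MC. In bone it had 1.86, 1.73 and 1.48 in Fgfr2+/+ and 2.68, 1.98 and 1.67 in Fgfr2+/S252W embryos. In condylar cartilage it had 0.238, 0.322 and 1.66 in Fgfr2+/+ and 0.248, 0.258 and 0.295 in Fgfr2+/S252W embryos. Each MC library lay above each library of the other tissues, and bone lay above 5 of the 6 condylar libraries, with Fgfr2+/+ condylar replicate 3 within the range of bone. On the log2 scale the difference was -2.01 ± 0.25 between bone and MC (adjusted p = 1.72e-06, limma), 2.36 ± 0.42 between bone and condylar cartilage (adjusted p = 9.00e-05, limma) and -4.37 ± 0.41 between condylar cartilage and MC (adjusted p = 2.22e-08, limma), so that condylar cartilage and MC were 20.7-fold apart. All 3 differences kept their sign and passed under every alternative tried, from -2.29 to -0.97, from 1.78 to 2.94 and from -4.89 to -3.59.

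Jag2 was low throughout, at 0 to 43 fragments per library. Its 6 bone libraries lay between 0.212 and 0.465 normalized FPKM, its MC libraries between 0 and 0.726 and its condylar libraries between 0.0203 and 0.252. All tissues overlapped. The log2 fold change was 0.88 ± 0.62 between bone and MC (adjusted p = 0.250, limma), 1.07 ± 0.57 between bone and condylar cartilage (adjusted p = 0.130, limma) and -0.18 ± 0.71 between condylar cartilage and MC (adjusted p = 0.846, limma). The highest MC value was that of Fgfr2+/+ replicate 1, and without this library bone was above MC by 1.64 (adjusted p = 0.0375, limma). Among the MC libraries it had the lowest sum of chondrocyte markers (66.0 normalized FPKM). It also had the highest sums of osteoblast (818) and osteoclast markers (100). The part of those cells in its values was not tested.

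Dll1, a Delta-like ligand, was counted in bone and condylar cartilage only. Bone libraries held 14, 11 and 20 fragments in Fgfr2+/+ and 33, 36 and 39 in Fgfr2+/S252W embryos. Condylar libraries held 1, 2 and 3 fragments in Fgfr2+/+ and 1, 6 and 4 in Fgfr2+/S252W embryos, and none of the 6 MC libraries held any. Taking 3 fragments over the 6 MC libraries together as the limit that a count of 0 allows, 0.0213 normalized FPKM, the pooled level of 0.394 in bone was at least 18.5-fold higher than in MC, and that of 0.0664 in condylar cartilage, which rests on 17 fragments, at least 3.12-fold higher. These limits cover counting error only. The log2 fold change between bone and condylar cartilage was 2.45 ± 0.46 (adjusted p = 1.61e-04, limma, filterByExpr fit). The fitted difference between condylar cartilage and MC passed (adjusted p = 0.0367, limma) but failed when any of 7 single libraries was left out (adjusted p from 0.0557 to 0.0886, limma). An exon of Dll1 overlaps A930024N18Rik on the other strand, so that shared fragments are missing from its counts.

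The targets were highest in bone. Hes1 had 3.38, 3.90 and 4.75 normalized FPKM in Fgfr2+/+ bone and 4.65, 5.64 and 5.83 in Fgfr2+/S252W bone. In MC it had 0.940, 0.905 and 6.47 in Fgfr2+/+ and 1.26, 2.74 and 2.36 in Fgfr2+/S252W embryos. In condylar cartilage it had 1.01, 0.840 and 2.50 in Fgfr2+/+ and 0.362, 0.754 and 2.78 in Fgfr2+/S252W embryos. Bone lay above all condylar libraries and above 5 of 6 MC libraries, with Fgfr2+/+ MC replicate 3 the highest of all. The highest condylar libraries were again replicate 3 of each genotype, with the marker sums given for Notch1. Its log2 fold change was 2.17 ± 0.40 between bone and condylar cartilage (adjusted p = 1.15e-04, limma) and 1.37 ± 0.40 between bone and MC (adjusted p = 0.00750, limma). The latter did not pass in edgeR's quasi-likelihood test (0.98, adjusted p = 0.0959) or in DESeq2 (0.93, adjusted p = 0.0904). The cartilages differed by -0.80 ± 0.50 (adjusted p = 0.181, limma), and this passed with sample quality weights (-1.25, adjusted p = 0.0247, limma) and without both Fgfr2+/+ MC replicate 1 and Fgfr2+/+ condylar replicate 3 (-1.31, adjusted p = 0.0413, limma), which was chosen after seeing the data.

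Hey1 had the widest range of the 10. It had 21.1, 23.4 and 42.5 normalized FPKM in Fgfr2+/+ bone and 41.5, 28.6 and 33.8 in Fgfr2+/S252W bone. In MC it had 8.85, 2.59 and 5.75 in Fgfr2+/+ and 4.27, 2.84 and 4.72 in Fgfr2+/S252W embryos. In condylar cartilage it had 0.304, 0.299 and 2.35 in Fgfr2+/+ and 0.512, 0.387 and 0.520 in Fgfr2+/S252W embryos. The tissues did not overlap, and Fgfr2+/+ condylar replicate 3 stood apart from the other 5 condylar libraries for Hey1 as it did for Jag1. The log2 fold change was 5.84 ± 0.48 between bone and condylar cartilage, or 57.1-fold (adjusted p = 3.63e-09, limma), 2.70 ± 0.31 between bone and MC (adjusted p = 5.70e-07, limma) and -3.13 ± 0.54 between condylar cartilage and MC (adjusted p = 5.01e-05, limma). Without Fgfr2+/+ MC replicate 1 and Fgfr2+/+ condylar replicate 3 the first was 6.28, the second 2.98 and the third -3.30.

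Heyl, a target known from pericytes and smooth muscle, had 4.95, 5.29 and 5.01 normalized FPKM in Fgfr2+/+ bone and 8.39, 5.70 and 4.39 in Fgfr2+/S252W bone. In MC the 6 libraries lay between 0.233 and 1.83, and in condylar cartilage between 0.190 and 0.571. Bone did not overlap either cartilage. The fitted log2 fold change was 2.86 ± 0.34 between bone and MC (adjusted p = 1.14e-06, limma), 4.11 ± 0.38 between bone and condylar cartilage (adjusted p = 1.70e-08, limma) and -1.25 ± 0.48 between condylar cartilage and MC (adjusted p = 0.0326, limma), all in the filterByExpr fit. The last failed the test when any of 6 single libraries was left out, at -0.89 to -1.17, and with no scaling factor (-0.61, adjusted p = 0.235, limma).

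**Figure D2:**
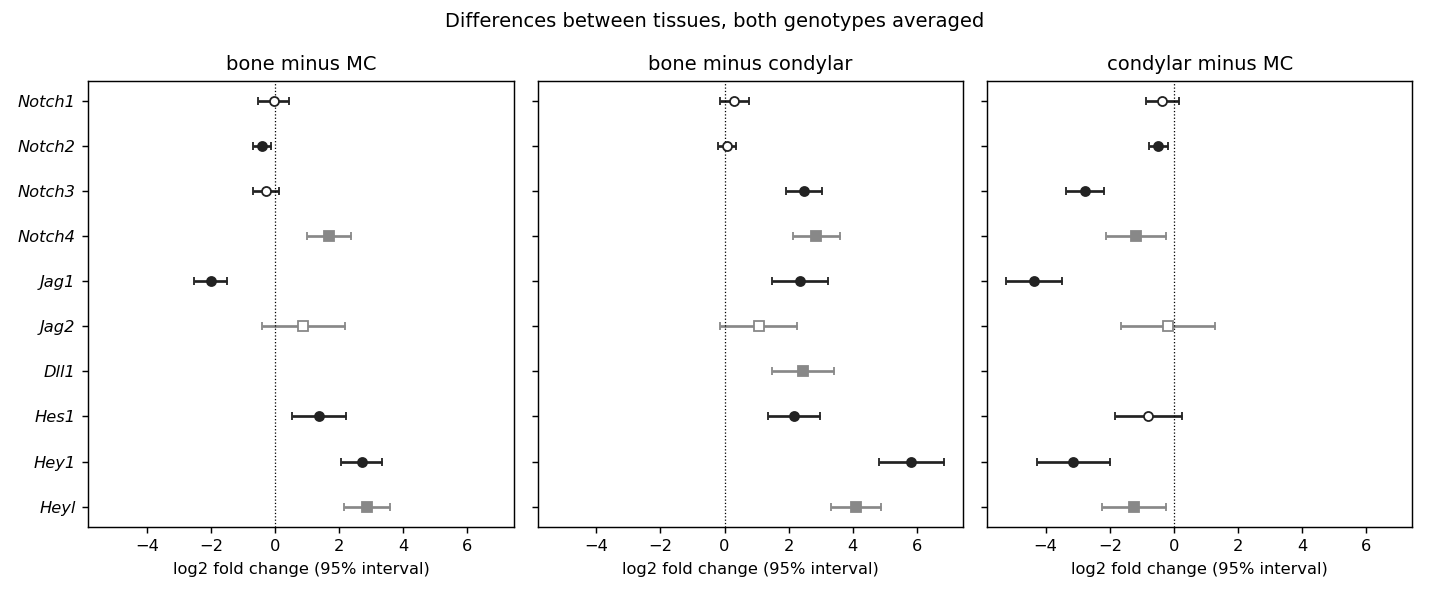
Log2 fold changes between tissues with 95% intervals (horizontal axis) for the 10 members, both genotypes averaged. Circles are the main fit, grey squares the filterByExpr fit, filled symbols passed at an adjusted p below 0.05, and Dll1 is left out where MC held no fragment. Between bone and condylar cartilage all members shown lie above 0, and Jag1 and Notch2 are the members whose intervals lie below 0 between bone and MC.

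The order of the tissues thus differed between the most abundant ligand and the targets. Jag1 fell from MC to bone to condylar cartilage, and Hey1 from bone to MC to condylar cartilage, each neighbour in both orders differing in the test. Hes1, Heyl and Notch4 were highest in bone, and Notch3 was high in bone and MC alike.

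Markers of several cell types moved with these genes. The 8 endothelial markers (Pecam1, Cdh5, Kdr, Tek, Tie1, Emcn, Cldn5 and Esam) summed to 53.2 to 68.9 normalized FPKM in bone, 4.97 to 22.2 in MC and 1.55 to 6.44 in the condyle. Cdh5, which encodes VE-cadherin, had a median of 22.7 in bone, 5.16 in MC and 1.34 in the condyle. This is the order of Notch4, Hey1 and Heyl, and not that of Jag1. The sums of osteoclast and red cell markers had the same order by their medians. These were 631, 40.2 and 10.7 for osteoclast and 454, 160 and 60.0 for red cell markers. The osteoclast sums of the tissues did not overlap, while red cell sums overlapped between bone and MC and between the cartilages. Skeletal muscle sums had this order too (20.3, 10.5 and 1.00, with overlap), but Myh8 and Myog had higher medians in MC than in bone. The macrophage sum also had it (68.7, 34.6 and 1.97, with bone and MC overlapping), through Cd68, while Adgre1, C1qb and Mrc1 had higher medians in MC than in bone. The perichondrium and tendon markers had median sums of 270 in MC, 229 in bone and 83.7 in the condyle, with MC and bone overlapping, and of these markers Scx and Prrx1 were highest in MC by their medians and Postn and Tnmd in bone. The 7 pericyte and smooth muscle markers summed to 113 to 174 in the condyle, where Notch3 was lowest, against 25.7 to 57.5 in bone and 13.9 to 37.0 in MC. That sum was mostly Cspg4 in the condyle (median 114), and the markers did not share an order: Rgs5 had medians of 4.88 in bone, 5.10 in MC and 0.733 in the condyle, Kcnj8 of 2.54, 2.00 and 0.0291, and Acta2 of 13.6, 2.36 and 5.56. Osteoblast markers (7 genes) summed to 4019 to 7813 in bone, 272 to 818 in MC and 1593 to 6001 in the condyle, which places MC last, unlike Hey1 and Hes1. The part of cell makeup in the tissue differences was not tested.

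**Figure D3:**
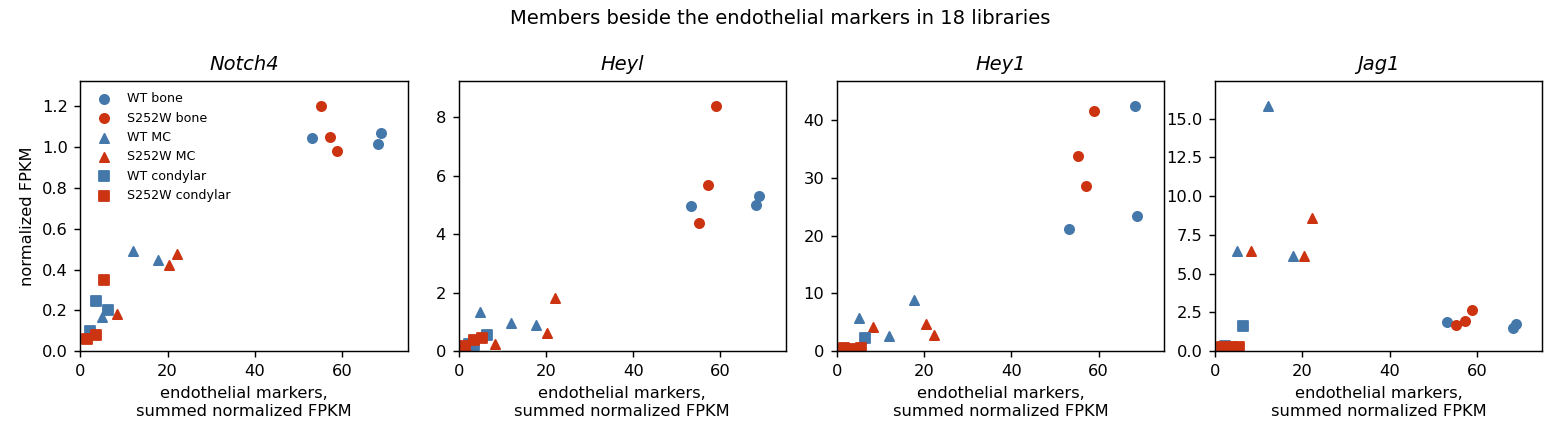
Normalized FPKM of Notch4, Heyl, Hey1 and Jag1 (vertical axes) against the summed normalized FPKM of 8 endothelial markers (horizontal axis) in 18 libraries, with tissues by symbol and genotypes by colour. Bone libraries, at 53.2 to 68.9 on the horizontal axis, are highest for Notch4, Heyl and Hey1, and MC libraries, at 4.97 to 22.2, for Jag1.

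The study asked how the S252W mutation changes the embryonic mandible. Fgfr2 itself, counted over both alleles, differed by -0.02 ± 0.23 (SE) on the log2 scale in bone, by -0.31 ± 0.24 in MC and by 0.31 ± 0.25 in the condyle, and since the mutation is a base change these counts do not check the genotype labels. No member passed the test between Fgfr2+/S252W and Fgfr2+/+ embryos in any tissue in limma, on either gene filter, and none had an unadjusted p below 0.05 there. Of all genes in the main comparison 0.0872% passed in bone, 10 genes, and 0% in either cartilage. On the filterByExpr genes the share in bone was 0.141%. The number of genes called in bone ran from 0 to 91 when single libraries were left out, and was 141 with bone libraries fitted alone and 589 with sample quality weights. No member passed in edgeR's quasi-likelihood test, which called 4 genes in bone, 90 in MC and 0 in the condyle, or in DESeq2, which called 18, 423 and 3. With 3 embryos against 3, an exact two-sided permutation test of a single gene could not give a p below 0.1.

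In bone Notch2, the most abundant receptor, differed by 0.30 on the log2 scale (95% interval -0.10 to 0.70), Notch3 by -0.03 (-0.53 to 0.46), Notch4 by 0.06 (-0.51 to 0.63) and Notch1 by 0.20 (-0.40 to 0.79). Among the targets Hey1 differed by 0.30 (-0.25 to 0.84), Heyl by 0.24 (-0.26 to 0.75) and Hes1 by 0.42 (-0.35 to 1.18), and Jag1 differed by 0.30 (-0.47 to 1.08). Over these 8 members the intervals reached no lower than -0.53 and no higher than 1.18. Those of Jag2, at -0.14 (-1.49 to 1.22), and of Dll1, given below, were wider. The median of the 10 members in bone was 0.28, against 0.00 over all genes in the same fit, and 8 of 10 lay above 0.

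Dll1 was the member whose genotypes did not overlap in bone. Its fragments were 33, 36 and 39 in Fgfr2+/S252W and 14, 11 and 20 in Fgfr2+/+ bone, or 0.494 ± 0.072 against 0.264 ± 0.045 normalized FPKM (SD, n = 3). The log2 fold change was 0.87 ± 0.46 (95% interval -0.08 to 1.82), with an unadjusted p of 0.0705 and an adjusted p of 0.655 (limma, filterByExpr fit), and it stayed between 0.77 and 1.05 under the alternatives. This was 1 of 10 members without overlap, beside 20% of all genes in bone. In MC 1 of 10 members, Notch2, did not overlap (12.6% of all genes), and in condylar cartilage none did (9.5%).

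A pair of bone libraries stood apart from the rest of their tissue. Fgfr2+/+ bone replicates 1 and 2 had 36.0% and 34.8% mitochondrial counts, against 20.4% in replicate 3 and 23.4% to 23.6% in Fgfr2+/S252W bone. Their sums of skeletal muscle markers were 103 and 119 normalized FPKM, against 0.946 to 20.6 in the other 4 bone libraries. They were also the lowest bone libraries for Notch2 (12.97 and 11.92) and Hey1 (21.1 and 23.4), where replicate 3 had the highest level of all 6 (18.6 and 42.5). Both were lowest as well for Notch1 (2.77 and 2.64), Hes1 (3.38 and 3.90) and Dll1 (0.258 and 0.223). This was not so for Notch3, Notch4, Jag1, Jag2 and Heyl. Without replicate 3 Notch2 differed between genotypes by 0.50 (adjusted p = 0.253, limma) and Hey1 by 0.62 (adjusted p = 0.293, limma). Of 12 lists of cell type markers, 6 did not overlap between the genotypes in bone. Fgfr2+/S252W libraries were higher in the sums of osteoclast markers (728 to 992 against 425 to 534 normalized FPKM), macrophage markers (75.6 to 106 against 39.8 to 61.7) and chondrocyte markers (56.4 to 76.0 against 17.8 to 46.9). They were lower in those of pericyte and smooth muscle (25.7 to 27.1 against 36.1 to 57.5), red cell (158 to 303 against 605 to 721) and perichondrium and tendon markers (169 to 220 against 238 to 407). Endothelial markers overlapped, at 55.2 to 58.9 against 53.2 to 68.9. The part of the mitochondrial share and of cell makeup in these values was not tested.

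In MC Notch2 had 27.7, 20.6 and 20.7 normalized FPKM in Fgfr2+/S252W and 17.9, 20.5 and 20.4 in Fgfr2+/+ embryos, and the gap between the genotypes was thus small beside the spread within each. Its log2 fold change was 0.23 (95% interval -0.19 to 0.66). In MC 2 of the 12 marker lists did not overlap between the genotypes: Fgfr2+/S252W libraries had lower sums of osteoclast markers (35.5 to 35.9 against 44.6 to 100.4) and higher sums of macrophage markers (35.9 to 45.8 against 11.6 to 33.4). Sums of chondrocyte markers overlapped. They were highest in Fgfr2+/S252W replicate 1 (1679) and lowest in Fgfr2+/+ replicate 1 (66.0), the MC libraries with the highest and lowest Notch2. The part of these markers in the Notch2 values was not tested. Notch1 differed by 0.07 (-0.69 to 0.82), Notch3 by 0.35 (-0.28 to 0.98) and Jag1 by -0.26 (-0.95 to 0.43). The targets were less well determined, with Hey1 at -0.50 (-1.66 to 0.65), Hes1 at 0.27 (-1.22 to 1.75) and Heyl at -0.86 (-2.19 to 0.47). The intervals of these 3 targets extended beyond a 2-fold change in at least 1 direction.

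In condylar cartilage Notch2 differed by 0.14 (95% interval -0.27 to 0.55), Notch1 by 0.14 (-0.54 to 0.81) and Notch3 by 0.17 (-0.84 to 1.18). Jag1 differed by -0.86 (-2.44 to 0.72) and Hey1 by -0.30 (-2.24 to 1.64), and without Fgfr2+/+ condylar replicate 3 and Fgfr2+/+ MC replicate 1 they were at -0.05 and 0.62. Hes1, at 0.362, 0.754 and 2.78 in Fgfr2+/S252W embryos, differed by -0.64 (-2.11 to 0.82). With 13 to 104 fragments of Jag1 and 8 to 58 of Hey1 per library, the intervals of both extended beyond a 2-fold change in at least 1 direction. In the filterByExpr fit Jag2 differed by 1.08 (-0.88 to 3.04) and Dll1 by 0.63 (-1.06 to 2.32). Notch4 differed there by -0.65 (-2.02 to 0.72) and Heyl by 0.03 (-1.46 to 1.53).

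**Figure D4:**
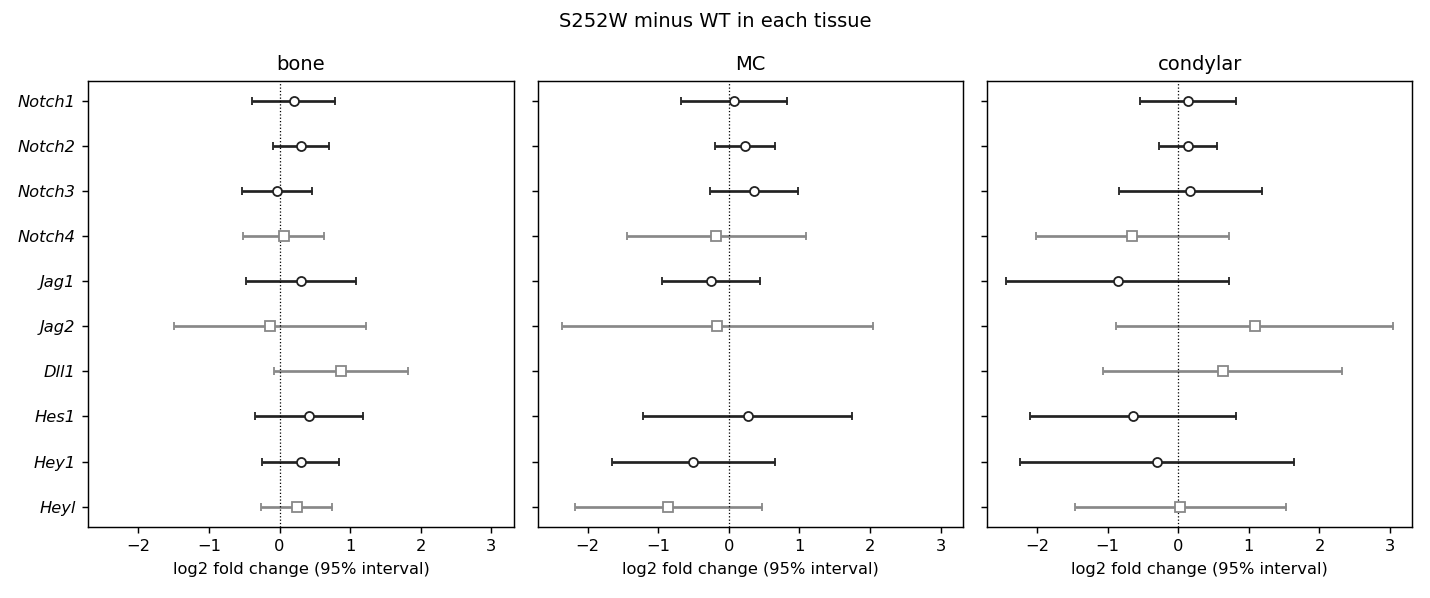
Log2 fold changes of Fgfr2+/S252W against Fgfr2+/+ with 95% intervals (horizontal axis) for the 10 members in bone, MC and condylar cartilage. Circles are the main fit, grey squares the filterByExpr fit, and open symbols did not pass; Dll1 is left out in MC, where it held no fragment. All intervals include 0, and they widen from bone to the cartilages for the targets.

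Whether the genotype effect differed between tissues was tested directly. No member passed, and none had an unadjusted p below 0.05, in the differences of effect between bone and MC (0.0523% of all genes passed, and 0.0806% on the filterByExpr genes), between bone and condylar cartilage (0%) and between condylar cartilage and MC (0%). The difference for Hey1 between bone and MC was 0.80 ± 0.61 on the log2 scale (adjusted p = 0.657, limma), and that for Jag1 between bone and condylar cartilage was 1.16 ± 0.84 (adjusted p = 1.00, limma).

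The machinery around the members was taken from a list of 43 other pathway genes. The main fit tested 31 of them and the filterByExpr fit 39, with Dll3, Dtx1, Hes5 and Hes7 too low in both. The genotypes differed in none of them in any tissue by limma, and 2 of 31 had an unadjusted p below 0.05 in bone (8.13% of all genes), 6 in MC (15.4%) and 0 in the condyle (3.06%). Between tissues, 21 of 31 passed between bone and MC (7 higher and 14 lower in bone), beside 51% of all genes, 13 between bone and condylar cartilage (7 and 6), beside 48.9%, and 16 between condylar cartilage and MC (5 and 11), beside 56.2%. On the filterByExpr genes the split between bone and MC was 15 higher and 12 lower, 5 of the higher genes being low genes that only this fit tested, so the balance of directions depended on the set of genes fitted. The list's median log2 fold change in the main fit was -0.20 between bone and MC, 0.00 between bone and condylar cartilage and -0.05 between condylar cartilage and MC, against 0.02, 0.00 and 0.01 over all genes.

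The genes named here were among the 4 with the largest differences each way in each pair of tissues. Lfng, a Fringe enzyme that sugars Notch receptors and shifts their choice of ligand, had a median of 2.44 normalized FPKM in bone, 0.609 in MC and 1.02 in the condyle, and was higher in bone by 1.88 against MC (adjusted p = 2.32e-04, limma) and by 1.38 against condylar cartilage (adjusted p = 4.70e-04, limma). Adam10, the protease of the first cut, was higher by 0.99 (adjusted p = 1.15e-05, limma) and 1.31 (adjusted p = 7.50e-08, limma). Fbxw7, a ubiquitin ligase that clears the active receptor, was higher by 1.18 and 1.23. Hes6, a Hes family member, was higher in bone than in MC by 1.69 (adjusted p = 0.00519, limma) and in condylar cartilage than in MC by 2.18 (adjusted p = 5.04e-04, limma). Neurl1b, a ubiquitin ligase of ligand endocytosis, was higher in bone by 2.95 against condylar cartilage (adjusted p = 1.21e-04, limma).

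Other pathway genes were highest in MC. Dtx3, a Deltex family gene, had a median of 27.5 normalized FPKM in MC against 2.23 in bone and 3.13 in condylar cartilage, with differences of -3.36 for bone and -2.90 for condylar cartilage. Dlk1, a Delta-like protein that lacks the domain by which canonical ligands bind Notch, had a median of 10.1 in MC, 0.546 in bone and 0.244 in condylar cartilage, with differences of -3.27 for bone and -4.65 for condylar cartilage. The co-activator Maml2 was lower in bone than in MC by -1.91 on the log2 scale, and Neurl1b and the receptor antagonist Numb were lower in condylar cartilage than in MC by -3.15 and -1.64. Against condylar cartilage, bone was lower in Numbl (-1.38), Maml2 (-1.17), the receptor-processing protease Furin (-0.84) and the Fringe enzyme Rfng (-0.68). Maml3, Psenen, a subunit of gamma-secretase, and Itch were higher in condylar cartilage than in MC by 0.91, 0.89 and 0.85. With no scaling factor the difference of Rfng did not pass the test.

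The filterByExpr fit alone tested 8 pathway genes, which missed the FPKM limit and could enter through a single tissue where they were high, so their counts are given as a description only. Between bone and MC 5 were higher in bone and 0 lower (26.5% and 23.2% of all genes), between bone and condylar cartilage 4 higher and 2 lower (26.5% and 23.9%), and between condylar cartilage and MC 3 higher and 3 lower (27.9% each way). The genes named from these 8 were chosen after their values were seen. Dll4, the endothelial Delta-like ligand, had a median of 0.795 normalized FPKM in bone, 0.136 in MC and 0.0504 in the condyle, and was higher in bone by 2.15 against MC (adjusted p = 0.00121, limma) and 3.87 against condylar cartilage (adjusted p = 6.74e-06, limma). Mfng, Dtx4 and the feedback inhibitor Nrarp followed the same order by their medians, at 2.03, 0.193 and 0.0813 for Mfng, 2.82, 0.954 and 0.202 for Dtx4 and 1.13, 0.504 and 0.0166 for Nrarp. Dlk2 was highest in condylar cartilage, with a median of 3.32, against 0.0313 in MC and 0.0884 in bone, lower in bone than in condylar cartilage by -5.11 (adjusted p = 2.91e-06, limma).

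The genes most like each kept member over the 18 libraries were sought among the 11469 genes by Pearson's r of log2 CPM. These r describe libraries that share tissue, depth and scaling, and carry no test. The likest genes were Olfml2b, Aurka and Plxdc2 for Notch3 (r = 0.97 each), Glul (0.98), Plce1 and Ttyh3 (0.97 each) for Jag1, and Cd93, an endothelial and myeloid receptor, and Fxyd5 for Hey1 (0.97 each). For Hes1 they were Vwa5a, Sema4b and Sp1 (0.92, 0.90 and 0.88) and for Notch2 Add1, Atf7ip and Arid5b (0.92, 0.91 and 0.89). Notch1, whose tissue differences did not pass the test, had the least like partners, Mlxip, Bach2 and Wasf2 (0.79, 0.76 and 0.76). With tissue means removed, Cd93 and Fxyd5 fell to 0.55 and 0.47 with Hey1, while the partners of Notch1 stood at 0.81, 0.75 and 0.76, so that their likeness to Hey1 lay largely in the tissue means.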

How the data were processed

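The authors' deposited files held raw counts of fragments per gene for each of the 18 libraries. By the study's methods and the submitters' processing notes, RNA was amplified with a NuGEN Ovation kit, made into Nextera XT libraries and read in pairs, aligned to GRCm38 (mm10) with STAR and counted over Ensembl genes with featureCounts 1.5.0-p1, without strand. Members were matched by gene identifier and symbol. The members and gene lists were chosen with earlier results of these data known. From the counts, FPKM used exon lengths as given in the files and TMM library sizes. Genes that exceeded 1 FPKM, here without TMM factors, in 50% or more of the libraries were fitted with limma 3.58.1 (voom) on 6 groups of 3 in R 4.3.3, with Benjamini-Hochberg adjustment over all genes tested and a threshold of 0.05. Members under the FPKM limit were tested in the same fit on genes kept by edgeR's filterByExpr. Alternatives were edgeR 4.0.16, DESeq2 1.42.0, other filters and scalings, sample quality weights, a replicate or embryo block and leaving out each library. The limma fit was tested on simulated data. Pathway genes were named by a rule, the 4 with the largest differences each way among those that passed. The 3 genes most like a member were picked by Pearson's r. Some genes that these rules pick are not reported here. Separate embryos were the replicates, as read from the library numbering. Where a count was 0, 3 fragments gave the limit. Promoter sequences are from RefSeq, GRCm38.p6.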

Additional observations from a re-analysis of the deposited data

How the results depend on the processing

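No member passed between the genotypes or in the difference of effect between tissues under any alternative, which included edgeR, DESeq2, other filters and scalings, weights and leaving out each library (0 to 0 members). The main fit did not pair the tissues of an embryo. With the replicate number as a block, the count of members called was 0 for each genotype comparison. With the embryo as a block, which pairs its tissues, the count was 4 for each pair of tissues. No call changed in either. The labels do not say whether same-numbered libraries of the genotypes share more than a number. Their deviations correlated at a mean of 0.09 for bone, -0.10 for MC and 0.15 for the condyle. Single pairs ran from -0.17 in MC to 0.31 in the condyle, and a shared litter or batch was not tested. Leaving out each library in turn gave 3 to 4 members between bone and MC, 4 to 5 between bone and condylar cartilage and 4 to 5 between condylar cartilage and MC. The count of 4 became 7 with filterByExpr in each pair of tissues, 7 without a filter for the comparisons with condylar cartilage, and 2 between bone and MC within Fgfr2+/+ embryos alone. With no scaling factor the directions of Notch1 (1.02), Notch2 (0.66) and Notch3 (0.76) turned between bone and MC, and those of Notch1 (0.45) and Notch2 (0.30) between condylar cartilage and MC, where neither passed. By construction these values without a scaling factor hold the shift of the median gene given above, which TMM scaling takes out. Of 876 values of single members in pairs of tissues, 831 kept their call, 32 lost it and 9 gained it. A further 4 turned in direction and passed in the alternative or the main fit. The 831 include 11 that changed sign and passed in neither. Notch2 between bone and MC was also lost without a filter (adjusted p = 0.127, limma) and within either genotype (0.0914 and 0.140), and the cause was not tested. Fragment counts limit Jag2, Dll1 and the cartilage values of Notch4, Hes1 and Heyl.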
